A study of Mus musculus with 4 samples.

Results

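The insulin and insulin-like growth factor (IGF) genes described here are 10 genes chosen by name: the receptors Igf1r and Insr, the receptor adaptors Irs1 and Irs2, and the secreted IGF-binding proteins Igfbp2, Igfbp3, Igfbp4, Igfbp5, Igfbp6 and Igfbp7. All 10 were found by symbol among the 24444 genes of the deposited table. Oesophageal cells of the mouse strain C57BL/6J were cultured, and their poly(A) RNA gave 4 libraries, 2 from untreated wild-type cells labelled Nrf2_WT and 2 from cells labelled Nrf2_HET, whose treatment is given as CRISPR/Cas9 microinjection and whose cassette is Nfe2l2-E79Q. Nfe2l2 encodes NRF2, the transcription factor of the antioxidant response, and E79Q is a tumour-derived substitution in it; the HET group is called E79Q below. Every column name of the table also carries the word SV40, in both groups, which the labels do not explain. How many animals or cultures the libraries came from is not stated in the labels, so p-values cannot be taken to measure a spread between animals or cultures. They rest on how far the 2 pairs of libraries of the same replicate number disagree, pooled over genes.

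Insulin, IGF-1 and IGF-2 signal through the tyrosine kinases INSR and IGF1R, which phosphorylate the adaptor proteins IRS1 and IRS2. The adaptors recruit PI3-kinase, which activates AKT, and AKT in turn activates mTORC1 and keeps the FOXO transcription factors out of the nucleus. The IGF-binding proteins hold IGFs outside the cell, and proteases such as PAPP-A release them again; in stratified epithelia IGF signalling is known to support the growth of basal cells.

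Each value is a deposited variance-stabilised value on a log2-like scale. Differences on it are E79Q minus wild type, with a moderated standard error (n = 2 pairs of libraries). The scale is compressed at low counts, so a given difference stands for a larger fold in a low gene. Igfbp4 at -0.22 had a ratio of 0.664 in estimated counts, and Igfbp3, a higher gene, at -0.29 had 0.791. Differences, intervals and ranks of differences on this scale therefore cannot be compared as folds between genes of different level. The threshold for a call was an adjusted p of 0.05 in limma, with Benjamini-Hochberg adjustment over the 10857 genes high enough to test. Of the 10 genes, 8 were tested, 2 were called higher (Irs2 and Igfbp2), 3 were called lower (Igfbp7, Igfbp3 and Igfbp4), and 3 were not called (Igf1r, Insr and Irs1). Igfbp5 and Igfbp6 were too low to test. Over all genes tested, 40.4% were called, 21.5% higher and 18.9% lower. The median difference was -0.019 in the 8 tested genes and 0.0062 in all genes tested.

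The promoter windows of the genes are shown first for the adaptor genes, for Igfbp2 and for Igfbp7. On the deposited scale Igfbp7 had the largest difference among the 10. RefSeq windows on GRCm38.p6, from 250 bases before to 50 bases after an annotated start, matched 9 of the 10 genes by symbol and not Insr. They were searched on both strands for 4 motifs, and for a further motif, the E-box CACGTG, added after the sequences had been seen. The core of the antioxidant response element bound by NRF2, TGACNNNGC, lay in 3 of the 10 windows of these 9 genes, those of Irs2, Irs1 and 1 of the 2 windows of Igfbp2, and in 12.4% of all 32851 windows. CACGTG lay in 7.15% of all windows, and among the 10 windows in those of Irs1 and Irs2 and in the other window of Igfbp2. The 4 windows are printed 5′ to 3′ on the strand of the gene, and capitals mark matches to either of these motifs. They lie at chr8:11008880-11009179 on the minus strand (Irs2), chr1:82291390-82291689 on the minus strand (Irs1), chr1:72825137-72825436 on the plus strand (Igfbp2) and chr5:77407996-77408295 on the minus strand (Igfbp7).
Irs2: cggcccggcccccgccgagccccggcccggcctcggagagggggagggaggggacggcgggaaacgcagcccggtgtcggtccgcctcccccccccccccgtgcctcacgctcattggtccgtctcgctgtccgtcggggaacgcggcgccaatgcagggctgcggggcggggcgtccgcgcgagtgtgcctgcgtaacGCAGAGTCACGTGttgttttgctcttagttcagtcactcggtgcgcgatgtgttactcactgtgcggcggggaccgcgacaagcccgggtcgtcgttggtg
Irs1: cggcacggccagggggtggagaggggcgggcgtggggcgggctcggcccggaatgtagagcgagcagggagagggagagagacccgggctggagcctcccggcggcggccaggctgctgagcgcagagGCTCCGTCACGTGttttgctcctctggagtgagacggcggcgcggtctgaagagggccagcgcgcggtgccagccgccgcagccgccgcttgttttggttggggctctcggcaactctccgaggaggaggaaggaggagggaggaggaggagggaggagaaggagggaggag
Igfbp2: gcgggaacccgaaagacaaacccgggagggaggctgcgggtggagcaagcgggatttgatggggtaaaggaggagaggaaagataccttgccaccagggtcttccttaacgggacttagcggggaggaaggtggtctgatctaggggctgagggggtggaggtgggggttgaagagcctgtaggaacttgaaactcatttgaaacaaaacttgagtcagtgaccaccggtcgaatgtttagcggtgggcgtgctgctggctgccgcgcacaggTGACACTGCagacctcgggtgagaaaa
Igfbp7: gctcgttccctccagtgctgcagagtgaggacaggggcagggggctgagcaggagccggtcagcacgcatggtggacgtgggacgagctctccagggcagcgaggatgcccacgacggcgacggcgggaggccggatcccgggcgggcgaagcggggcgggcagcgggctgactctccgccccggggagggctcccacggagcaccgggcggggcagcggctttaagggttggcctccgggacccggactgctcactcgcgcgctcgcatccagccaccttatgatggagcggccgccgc

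In both adaptor genes the match to the antioxidant element runs into the E-box with an overlap of 2 bases of the E-box. The longest run that the Irs1 and Irs2 windows share is GTCACGTGTT, 10 bases. On the same strand 16 of all windows (0.0487%) hold it, including the Irs1 and Irs2 windows from which it was picked. Its rarity is therefore no test of a shared element. Counted from the annotated start, the match to the antioxidant element begins at base -51 in Irs2, at base -122 in Irs1 and at base 24, after the start, in Igfbp2. Irs2 and Igfbp2 were called higher and Irs1 was not called, so genes with a match lay on both sides of the threshold. The FOXO motif TGTTTAC (3.65% of all windows) and the cyclic AMP response element TGACGTCA (1.79%) had no match in the 10 windows. The AP-1 motif TGANTCA (7.81%), which can overlap TGACNNNGC, had a single match, in the printed window of Igfbp2 at base -39. Igf2 and Nqo1, described below, were also searched. Igf2 had a match to the antioxidant element in a single window, and the window of Nqo1 had none. These letters describe the windows and do not show binding.

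Transcripts of the receptors did not change detectably. Igf1r, the receptor for IGF-1 and IGF-2, measured 11.56 and 11.54 in the wild-type libraries against 11.53 and 11.55 in the E79Q libraries. The E79Q values fall around those of wild type, and the difference was -0.016 ± 0.047 (limma adjusted p = 0.810), with a 95% interval from -0.12 to 0.08. Insr, the insulin receptor, measured 10.70 and 10.65 in wild-type cells against 10.66 and 10.70 in E79Q cells. Its groups overlap too, and its difference was 0.0096 ± 0.052 (limma adjusted p = 0.902), with a 95% interval from -0.10 to 0.12. Both intervals leave out changes as large as those of Irs2 and Igfbp7 below.

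The adaptor genes gave different results. Irs2, which links both receptors to PI3-kinase, measured 9.19 and 9.18 in wild-type cells against 9.77 and 9.78 in E79Q cells. Both E79Q libraries stood above both wild-type libraries, which after the centring on the replicate number, described below, means that both pairs rose. The gap within a group, equal in both groups by that centring, was far smaller than the difference between them. Irs2 rose by 0.59 ± 0.06 (limma adjusted p = 1.30e-06), by 0.58 in pair 1 and 0.61 in pair 2, a larger absolute difference than in 96.8% of the genes tested. In estimated normalised counts, obtained by inverting the variance stabilisation, this was a rise from 359 and 354 to 639 and 647, or 1.80-fold. Irs1, its paralogue, measured 8.01 and 7.87 in wild-type cells against 7.85 and 7.99 in E79Q cells. It was lower in pair 1 by 0.16 and higher in pair 2 by 0.12. The difference of -0.022 ± 0.081 was not called (limma adjusted p = 0.854, 95% interval from -0.20 to 0.15). At this low level the interval covers a wider range of folds than a log2 reading of it would give. Whether the changes of Irs1 and Irs2 differ from each other was not tested.

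Levels of different genes can be set side by side only per length, here as estimated normalised counts per kb of annotated exon. On this scale Irs2 gave 88.5% and 91.1% of the sum of Irs1 and Irs2 in wild type and 95.1% and 93.6% in E79Q, so Irs2 was the more abundant adaptor transcript in every library. Igf1r gave between 61.2% and 62.2% of the sum of Igf1r and Insr in all 4 libraries. The annotated exons may not be the ones these cells use, so such shares are approximate.

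**Figure D1:**
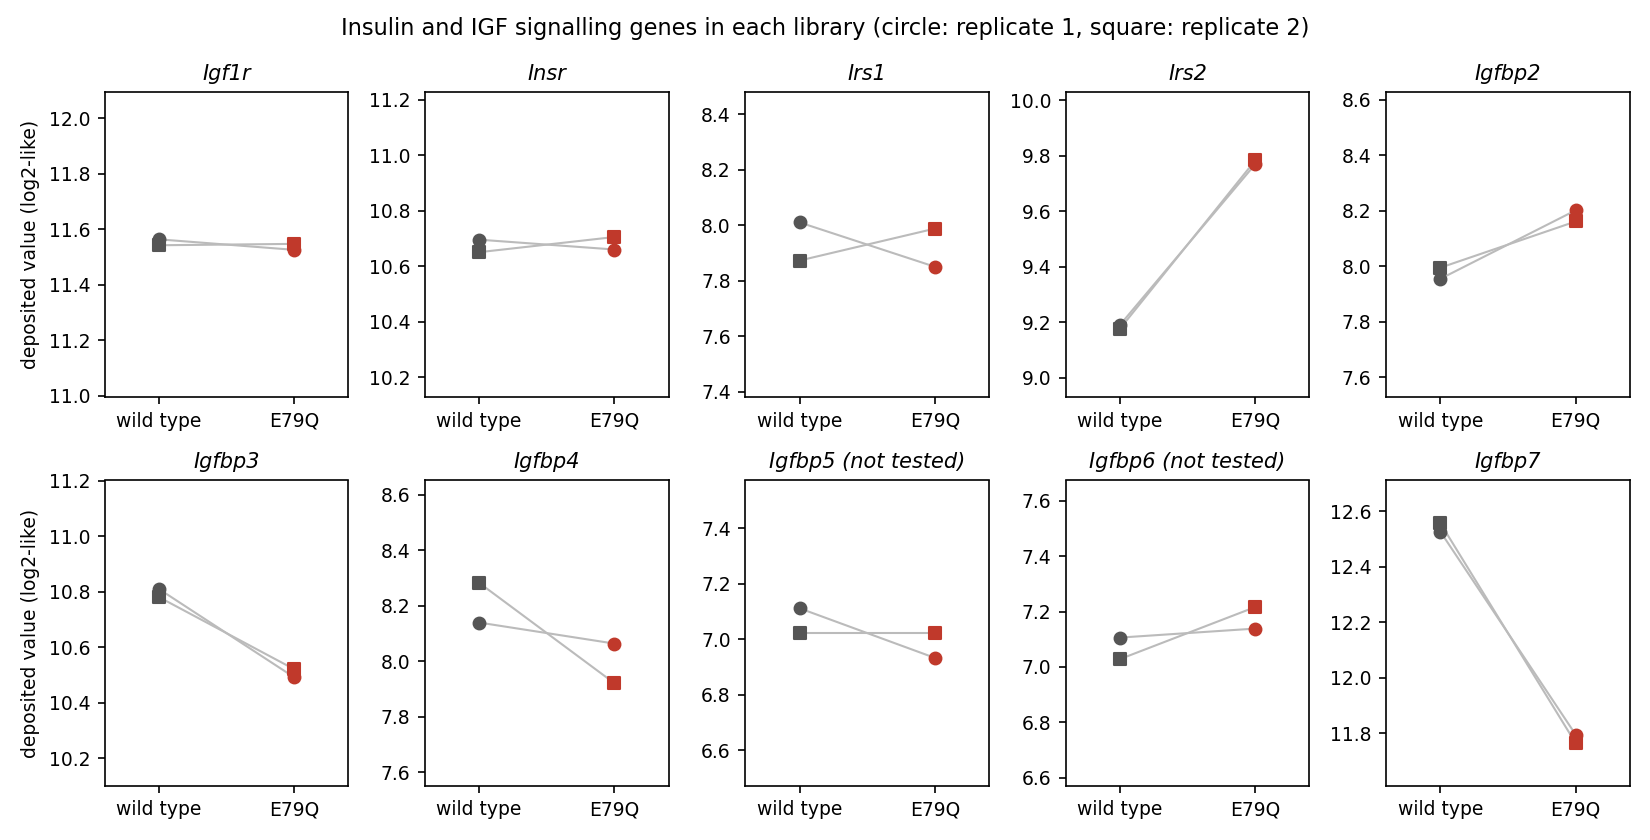
Deposited values (log2-like, vertical axes of equal span) of the 10 genes in the 2 wild-type (grey) and 2 E79Q (red) libraries, with a line joining libraries of the same replicate number (circle 1, square 2). The lines of Irs2 and Igfbp7 are steep and of nearly equal slope. Those of Igf1r, Insr and Irs1 slope slightly and in opposite directions. Those of Igfbp4 differ in slope, since its replicate 1 differs by -0.08 and its replicate 2 by -0.36. In every panel the lines meet midway, because the values had been centred on the replicate number.

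Among the binding proteins, the most abundant transcript had the largest difference. Igfbp7, a secreted protein that also binds insulin and sits in the matrix around cells, measured 12.53 and 12.56 in wild-type cells against 11.79 and 11.76 in E79Q cells. Both E79Q libraries stood below both wild-type libraries, which by the centring means that both pairs fell. Igfbp7 fell by 0.76 ± 0.05 (limma adjusted p = 3.57e-09), by 0.73 in pair 1 and 0.79 in pair 2, which exceeds the absolute difference of 98.4% of the genes tested. Its estimated normalised count was 5651 and 5777 in wild type and 3305 and 3231 in E79Q, 1.75-fold lower.

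Igfbp3, the main carrier of IGFs in blood and also made by keratinocytes, measured 10.81 and 10.78 in wild-type cells against 10.49 and 10.52 in E79Q cells. The groups did not overlap, and Igfbp3 fell by 0.29 ± 0.05 (limma adjusted p = 0.000366), a 1.26-fold lower estimated count. Igfbp4, an inhibitor of IGF action that PAPP-A cleaves, measured 8.14 and 8.28 in wild-type cells against 8.06 and 7.92 in E79Q cells. The lowest wild-type and the highest E79Q library were 0.08 apart, both of replicate 1, while replicate 2 differed by 0.36. Igfbp4 fell by 0.22 ± 0.08 (limma adjusted p = 0.0406), a ratio of 0.664 in estimated counts, on 86.2 and 110 counts in wild type and 74.8 and 55.8 in E79Q. This call did not hold without the replicate block (limma adjusted p = 0.101) or after quantile normalization (0.0654). Nor did it hold when low genes were kept and only genes of constant value left out (0.0906), an alternative added after the data had been seen. It was also lost without replicate 2 of either genotype, where the difference was -0.15, against -0.29 without replicate 1 of either. The centring makes the difference equal for either library of a pair, so these are not separate checks for each genotype.

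Igfbp2, a carrier that prefers IGF-2, moved the other way. It measured 7.95 and 7.99 in wild-type cells against 8.20 and 8.16 in E79Q cells, with no overlap. Igfbp2 rose by 0.21 ± 0.07 (limma adjusted p = 0.0336), from 60.0 and 65.3 to 96.3 and 89.7 estimated counts, 1.48-fold. Like Igfbp4, it was not called when only genes of constant value were left out (adjusted p = 0.0611).

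Igfbp5 and Igfbp6 were close to the floor of the table, 6.98, the value of a gene with no reads. Igfbp5 measured 7.11 and 7.02 in wild-type cells against 6.93 and 7.02 in E79Q cells, at most 1.09 estimated counts. Igfbp6, which prefers IGF-2, measured 7.11 and 7.03 in wild-type cells against 7.14 and 7.22 in E79Q cells, at most 3.45 estimated counts. At such counts a difference was not detectable and no fold is given. In the order of RefSeq protein-coding genes Igfbp5 is the direct neighbour of Igfbp2, and Igfbp1, which stood at the floor in all 4 libraries, that of Igfbp3.

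Per kb of exon, the order in wild type was Igfbp7 (4674 and 4778), Igfbp3 (496 and 485), Igfbp2 (41.1 and 44.7), Igfbp4 (22.0 and 28.1), Igfbp6 (0.90 and 0.14) and Igfbp5 (0.18 and 0.02). Neighbours in this order did not overlap between libraries except Igfbp6 and Igfbp5. The order was the same in E79Q, with Igfbp7 at 2734 and 2672. The 6 binding proteins together summed to 5234 and 5336 per kb in wild type and to 3203 and 3143 in E79Q. Igfbp7 gave 89.3% and 89.6% of that sum in wild type and 85.3% and 85.0% in E79Q, and Igfbp3 gave 9.48% and 9.08%, then 11.96% and 12.48%. The fall of the sum is thus mainly the fall of Igfbp7. The sum counts transcripts and is no measure of IGF-binding capacity, since how strongly each protein binds IGFs was not measured.

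**Figure D2:**
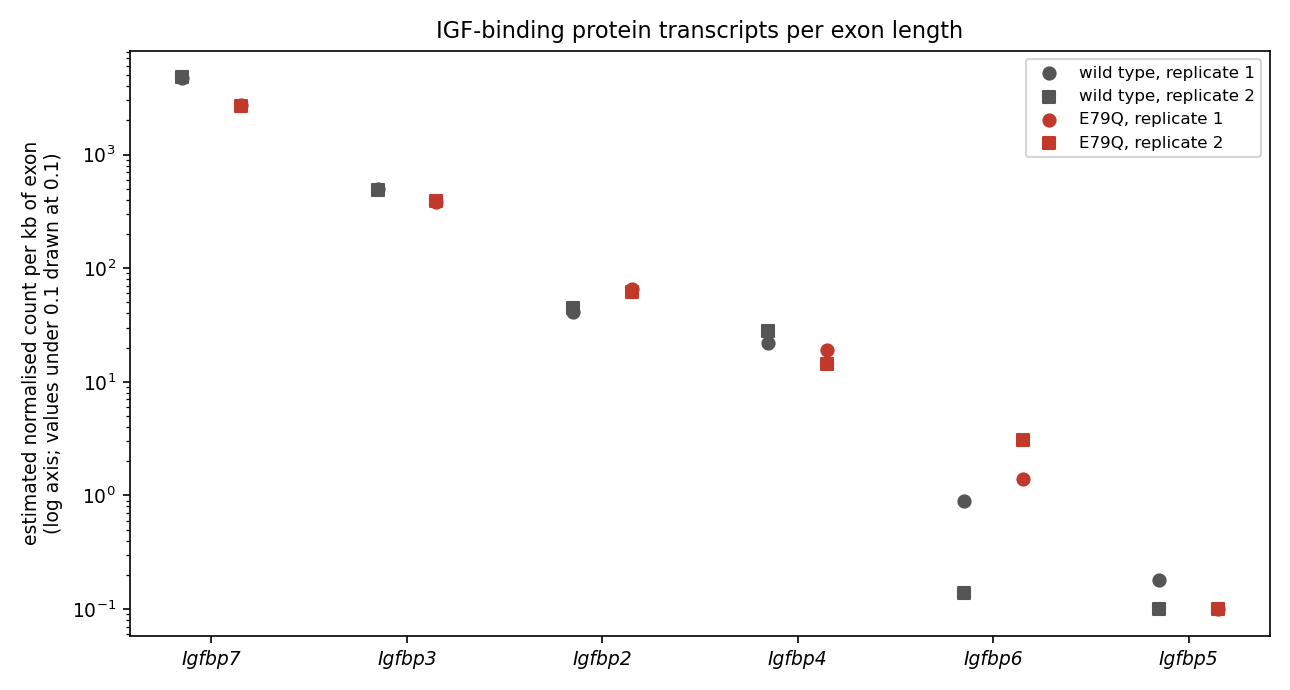
Estimated normalised counts per kb of exon (log axis) of the 6 binding proteins in each library, wild type in grey and E79Q in red. Igfbp7 stands above Igfbp3 in both groups, with means of 4726 against 490 in wild type and, closer together, 2703 against 388 in E79Q. Igfbp6 and Igfbp5 stand at or under 3.10.

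The groups did not overlap in 5 of the 8 tested genes, the 5 that were called, against 79.2% of all genes tested. By the centring on the replicate number, no overlap means only that the 2 pairs differed in the same direction. It adds no further support to a call. With 2 pairs the smallest two-sided p of an exact test is 0.5, so each call rests on a spread pooled over genes.

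Of 6 ligands and other receptors 2 were tested, and 1, Igf2, was called (50%, against 40.4% of all genes tested). Igf2, an imprinted growth factor that acts through IGF1R and a form of INSR, measured 8.77 and 8.81 in wild-type cells against 7.55 and 7.52 in E79Q cells. It fell by 1.25 ± 0.07 (limma adjusted p = 2.22e-09), from 222 and 231 to 20.3 and 18.1 estimated counts, 11.8-fold lower. H19, the non-coding RNA of the same imprinted locus, fell by 2.45 ± 0.08 (limma adjusted p = 3.21e-12). Igf2r, which clears IGF-2 from the cell surface, measured 12.04 and 12.05 in wild-type cells against 12.03 and 12.02 in E79Q cells, which differ by -0.017 ± 0.045 (limma adjusted p = 0.791; 95% interval from -0.11 to 0.08). Ins1, Ins2 and Insrr stood at the floor in all 4 libraries, and Igf1 reached at most 1.80 estimated counts. So Igf2 was the ligand transcript of this list detected above a few counts, in both groups.

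Genes that act on the binding proteins were called in both directions. Of 7 such proteases and inhibitors 4 were tested, 2 were called higher and 2 lower (100%, against 40.4% of all genes tested). Pappa, which encodes PAPP-A, the protease of IGFBP4, measured 8.21 and 8.47 in wild-type cells against 7.56 and 7.30 in E79Q cells. It fell by 0.91 ± 0.10 (limma adjusted p = 2.90e-06), unequally in the pairs, by 0.65 in pair 1 and 1.17 in pair 2. Its estimated counts were 97.6 and 147 in wild type and 20.8 and 6.37 in E79Q, 8.98-fold lower, but 5.87-fold without E79Q replicate 2 and 19.2-fold without E79Q replicate 1. Stc2, stanniocalcin 2, an inhibitor of PAPP-A, measured 9.67 and 9.62 in wild-type cells against 10.34 and 10.40 in E79Q cells. It rose by 0.72 ± 0.06 (limma adjusted p = 8.55e-08), 1.90-fold. The metalloprotease genes Adam12 and Adam9, whose products can cleave binding proteins, differed by -0.75 ± 0.06 and 0.28 ± 0.05 (limma adjusted p = 1.05e-07 and 0.000303).

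Of 14 other genes with an IGFBP domain or an IGF-binding product, 5 were tested, 0 were called higher and 3 lower in limma. At an unadjusted p under 0.05 none of the 5 was higher either. The share called was 60%, against 40.4% of all genes tested, of which 21.5% were higher and 18.9% lower. Whether so short a list differs from these shares was not tested. Wisp1 and Cyr61, matricellular proteins of the CCN family that carry this domain, were called lower, Wisp1 with a 2.77-fold lower estimated count (limma adjusted p = 7.55e-09) and Cyr61 at -0.34 ± 0.05 (8.03e-05). Htra1, a secreted protease with the same domain, fell by 0.11 ± 0.04 (limma adjusted p = 0.0477) and was not called without a mean-variance trend (0.136) or when only genes of constant value were left out (0.0772). Ctgf and Crim1 were not called, at -0.017 ± 0.061 and 0.11 ± 0.06. Of the 3 IGF2 mRNA-binding proteins, Igf2bp1 rose by 0.78 ± 0.07 (limma adjusted p = 5.90e-07), 2.93-fold, while Igf2bp2 (0.056 ± 0.048) and Igf2bp3 (-0.057 ± 0.077) were not called.

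Downstream of the receptors, 12 of 26 tested relay genes were called (46.2%), 5 higher and 7 lower, with a median difference of 0.015. This share is near the 40.4% called over all genes tested. The regulatory subunits of PI3-kinase fell: Pik3r3 by 0.63 ± 0.07, Pik3r2 by 0.54 ± 0.06 and Pik3r1 by 0.50 ± 0.06 (limma adjusted p = 2.15e-06, 3.09e-06 and 6.28e-06). The catalytic subunits Pik3ca and Pik3cb were not called, at 0.12 ± 0.05 and 0.081 ± 0.057. The kinase gene Akt1 fell by 0.39 ± 0.05 (limma adjusted p = 6.55e-06), and Akt2 differed by -0.034 ± 0.050, not called. The 5 relay genes called higher were Sos2, a Ras exchange factor, at 0.43 ± 0.06, and Tbc1d4, Shc1, Pdpk1 and Eif4ebp1, between 0.14 and 0.20; these 5, the catalytic subunits and Akt1 are named after their values were seen.

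Of 17 tested attenuators 9 were called (52.9%, against 40.4% of all genes tested), 4 higher and 5 lower, with a median difference of -0.0052. Grb10, an imprinted adaptor that binds and restrains both receptors, fell by 0.95 ± 0.06 (limma adjusted p = 8.67e-09), 2.64-fold lower in estimated count. Ddit4, an inhibitor of mTORC1, fell by 0.86 ± 0.05 (1.60e-09), and Inppl1, the lipid phosphatase SHIP2, by 0.30 ± 0.05 (0.000349). Trib3, a pseudokinase that can bind AKT, rose by 0.82 ± 0.05 (limma adjusted p = 1.43e-09). Attenuators therefore held large differences of both signs.

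FOXO factors and genes known as FOXO targets had 13 of 16 called (81.2%), 4 higher and 9 lower, with a median difference of -0.19. Over all genes tested 40.4% were called, 21.5% higher and 18.9% lower. Fbxo32, a ubiquitin ligase of muscle wasting, fell by 0.94 ± 0.06 (limma adjusted p = 1.13e-08), Ccng2 by 0.56 ± 0.07 (1.19e-05) and Bcl2l11, which encodes the death-promoting protein BIM, by 0.42 ± 0.06 (5.76e-05). Gadd45a, a stress gene, rose by 0.74 ± 0.05 (limma adjusted p = 1.88e-08). The others called higher, named after their values were seen, were Trib1 (0.33 ± 0.08), Foxo3 itself (0.19 ± 0.05) and Sod2 (0.15 ± 0.06). Trib1 rose unequally in the pairs, by 0.11 in pair 1 and 0.55 in pair 2. Irs2, a known FOXO target in liver, was not in this list. Over all 93 pathway genes beside the 10, 73 were tested, 16 were called higher and 27 lower, with a median of -0.017. The share called was 58.9%, against 40.4% of all genes tested. The lists were chosen with earlier results of these data known, and whether the shares differ was not tested.

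**Figure D3:**
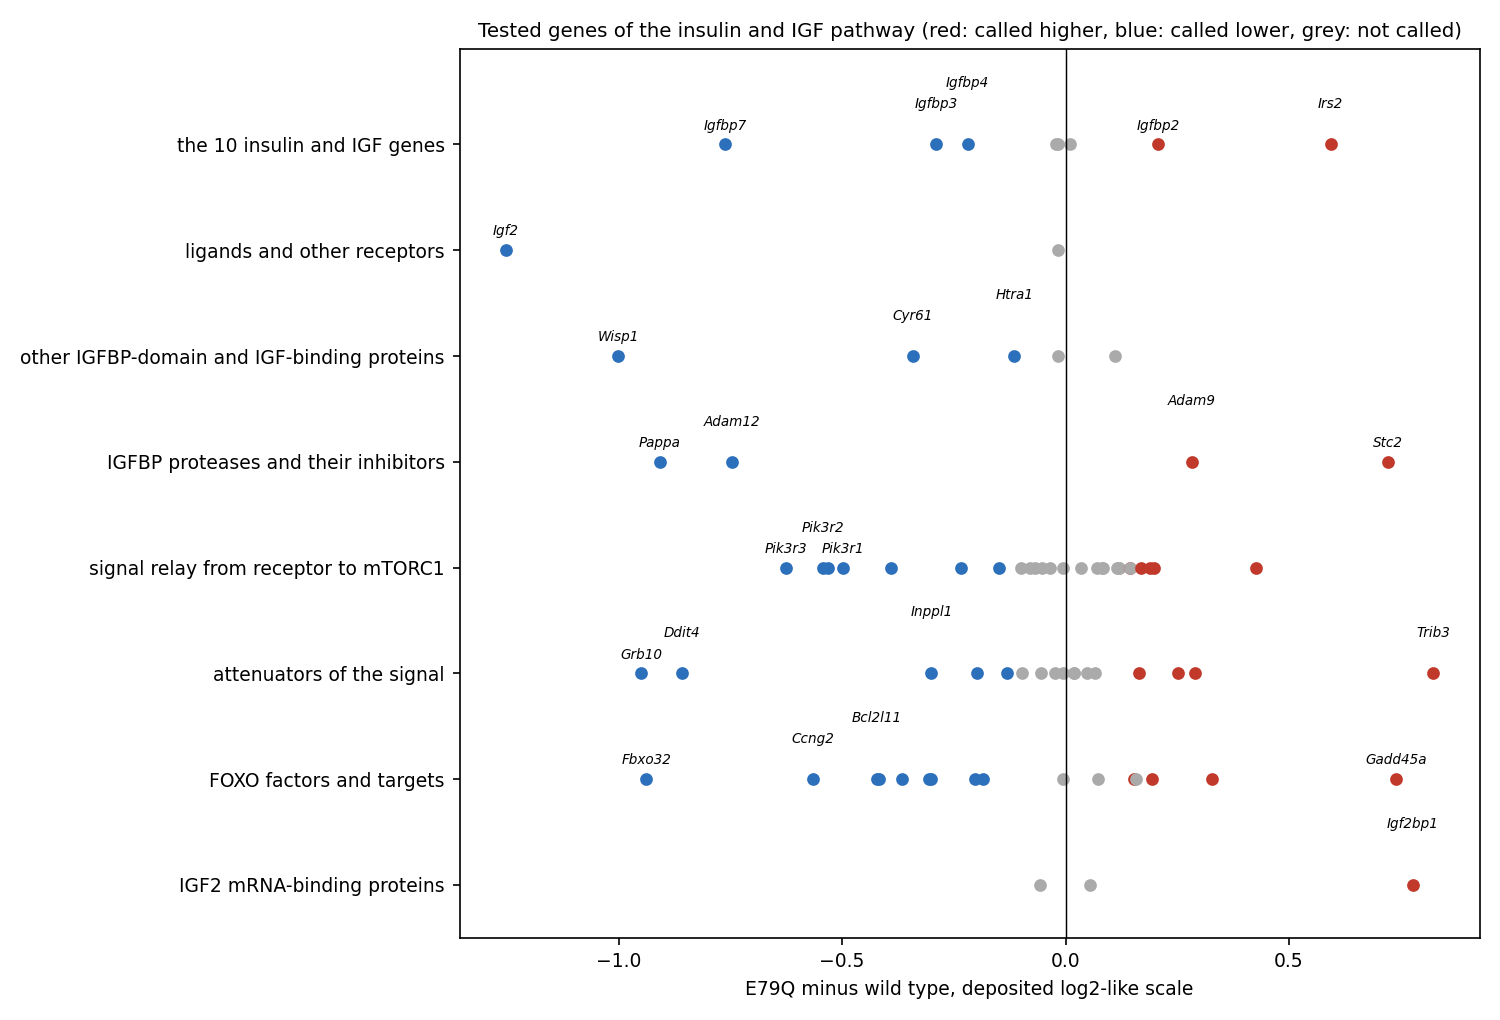
E79Q minus wild type (deposited log2-like scale, horizontal axis) for each tested gene of the insulin and IGF lists, 1 row of points per list, with most called genes named in the text labelled. Points lie on both sides of 0 in most rows; Igf2 is the farthest to the left at -1.25 and Trib3 the farthest to the right at 0.82.

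The genotype labels cannot be checked by the level of the targeted gene, since E79Q is a substitution; Nfe2l2 measured 11.38 and 11.27 in wild-type cells against 11.17 and 11.27 in E79Q cells (-0.10 ± 0.05, limma adjusted p = 0.154). Nqo1, a classical NRF2 target, was 8.74-fold higher in E79Q. All 10 oesophageal epithelial markers were high enough to test, with Krt5 between 15.79 and 15.85 and not called. Of them 6 were called (60%, against 40.4% of all genes tested). Dsg3 and Itga6 were higher, at 0.74 ± 0.05 and 0.73 ± 0.06, and Krt15 (-0.58 ± 0.07), Sox2 (-0.45 ± 0.06), Epcam (-0.22 ± 0.04) and Krt14 (-0.13 ± 0.05) were lower. Of 10 fibroblast markers 8 were too low to test, Lum stood at the floor in all libraries, and their summed estimated counts were 1011 and 1019 in wild type and 826 and 836 in E79Q. The 2 tested fibroblast markers went opposite ways. Col1a1, a collagen chain, was called lower at -1.29 ± 0.07, from 305 and 333 to 44.9 and 36.7 counts. Fbln1, a matrix protein that makes up most of the sum, was called higher at 0.26 ± 0.06, from 551 and 551 to 700.1 and 701 counts. Postn, not tested, had 42.7 and 45.7 counts in wild type and 6.17 and 5.15 in E79Q. Col1a2 and Col3a1, not tested either, were lower in E79Q too, and Pdgfra and Pdgfrb overlapped. Dcn and Thy1, also too low to test, were higher. Dcn stood near the floor in wild type and had 10.8 and 10.7 counts in E79Q. Thy1 had 0.218 and 0.989 counts in wild type and 6.73 and 4.26 in E79Q. Of 5 smooth muscle markers 2 were tested and both were called lower, Acta2 by 1.23 ± 0.06, and the list summed to 978 and 1021 counts in wild type and to 310 and 290 in E79Q. Among those not tested, Cnn1 was lower in E79Q, while Myh11 and Des were higher, at most 5.59 and 4.04 counts. Of 5 endothelial markers none was high enough to test, and Ptprc, Cd3e and Adgre1 of the immune markers stood at the floor. Cd68, which many cell types express, rose by 0.67 ± 0.07 (limma adjusted p = 1.34e-06). The summed counts of the smooth muscle and fibroblast lists were thus lower in E79Q, as were Igf2, Igfbp7, Igfbp3 and Igfbp4, and the part of these markers, and of the epithelial markers that changed, in those results was not tested. In bulk RNA fewer cells of a type and less RNA per cell cannot be told apart.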

How the data were processed

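Poly(A) RNA-seq of 4 libraries was deposited by the authors as a matrix of variance-stabilised values on a log2-like scale. Per the submitters' processing notes the tools were DESeq2, DESeq 1.22.2, Salmon 0.11.3 and STAR 2.5.2b and the build mm9; which did what, the strand setting and the annotation were not stated. Groups and replicate numbers came from sample titles; the series' design text describes another experiment and was not used. In every gene the 2 libraries numbered 1 add up to the same value as the 2 numbered 2 (largest gap 1.31e-13), so the values had been centred on the replicate number, and the numbers pair the libraries for that reason. The values of the 2 libraries of a group therefore mirror those of the other group, and single-library values are not independent.

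Genes were tested where the value was at least 1 above the lowest of the table (6.90) in at least 2 libraries. The fit was made with limma 3.58.1 (R 4.3.3), with genotype and a replicate block (1 residual and 14.6 prior degrees of freedom), a mean-variance trend, two-sided tests and Benjamini-Hochberg adjustment; the steps were tested on simulated data. Counts were estimated by inverting the stabilisation from the floor of 6.98 shared by 8120 genes; they summed to between 13.5 M and 13.9 M per library, are normalised (sequenced depth is unknown) and approximate, and lower values counted as 0. Exon lengths are unions of GENCODE M21 basic exons. Ccn1 to Ccn5 were matched through RefSeq synonyms. Named genes are the 10 genes, all ligand-list genes, up to 4 called genes with the largest absolute difference per pathway list, Nfe2l2 and Nqo1; others are marked, and 2 genes of the lists are not reported here by name. Genes, lists, motifs and tests were chosen with earlier results of these data known. Alternatives were other filters, scalings and moderation, no block, and leaving out each library.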

Additional observations from a re-analysis of the deposited data

How the results depend on the processing

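Filters, block and moderation leave a difference as it is, so only the scalings and leaving out a library could move it. By the centring, leaving out either library of a pair gives the same difference, and that library still bears on the values that remain. Across the 12 alternatives Irs2, Igfbp7 and Igfbp3 ranged from 0.58 to 0.60, from -0.80 to -0.75 and from -0.32 to -0.27. The fit without the block and those leaving out a library do not count the degree of freedom that the centring used. Their residual spread is thus understated, and a call kept in them is no separate check. Irs2, Igfbp7 and Igfbp3 kept their call in all alternatives except the fit with no filter. That fit keeps 8120 genes with identical values, whose variance is 0; limma then called 0 genes over the table, and so 0 higher and 0 lower among the 10 genes and in the pathway lists (3942 genes at an unadjusted p under 0.05, 3 of them among the 10). When only genes of constant value were left out, chosen after seeing the data, 3840 genes were called and 1 of the 10 was higher. With the stricter filter 1 of the 10 was higher, since Igfbp2, Igfbp4 and Irs1 were not tested. The fit without the replicate block called 6004 genes against 4388, and among the 10 genes 2 higher and 2 lower. It lost Igfbp4 and no other gene of the naming rule given above. Genes named outside that rule were not followed across the alternatives. The crossed pairing could not be fitted, because the centring leaves it no residual. When each library was left out, with genotype alone in the fit, 5008 to 5463 genes were called, 2 of the 10 higher and 2 to 3 lower; the lone library was taken to vary like the other group. Insr turned to -0.0083 after median centring and to -0.018 after quantile normalization and ranged from -0.013 to 0.032 when each library was left out; Irs1 turned to 0.022 after quantile normalization and ranged from -0.091 to 0.046. None of these was called. Nfe2l2 was called lower after quantile normalization (-0.13) and without replicate 2 of either genotype (-0.15). Robust empirical Bayes changed no call of a gene of the naming rule.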
